A study of Arabidopsis thaliana with 6 samples.

Results

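The alpha-expansin genes *EXPA1*, *EXPA3*, *EXPA4*, *EXPA5*, *EXPA6*, *EXPA8*, *EXPA9*, *EXPA10*, *EXPA11* and *EXPA15* were followed in seedlings of 2 mutant genotypes. They were chosen by gene identifier as members active in growing shoots and roots, and all 10 were found among the 27444 nuclear genes of the tables. The *lon1-2atg5-1* double mutant carries T-DNA insertions in *LON1*, which encodes a mitochondrial protease, and in *ATG5*, which autophagy requires. The *atg5-1* single mutant carries the *ATG5* insertion alone, so this insertion is shared by both genotypes, and both are in the *Col-0* background. There were 3 libraries of *lon1-2atg5-1* and 3 of *atg5-1*, each from whole seedlings under normal conditions with 16 h of light and 8 h of dark. Seedling age was 7 days in the description of the series and 10 days in the methods of the study. Each mutated gene is represented by 1 insertion allele, and libraries of the wild type or of *lon1-2* alone were not analysed here.

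Alpha-expansins are secreted proteins that loosen the cell wall. They act best in acidic walls and let cellulose microfibrils and the matrix between them slip under turgor, so that the cell can enlarge without the wall being cut. Auxin promotes this acid growth through plasma membrane proton pumps, and brassinosteroids and gibberellins raise many expansin transcripts. The family is large in *Arabidopsis*, and its members differ in the organs and cells that express them, from leaves and guard cells to root hairs.

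The libraries held 21964283 to 23929531 counts in *lon1-2atg5-1* and 22154558 to 22972992 in *atg5-1*. *LON1* had 95 to 196 counts in *lon1-2atg5-1* libraries and 528 to 671 in *atg5-1* libraries, which matches the labels. *ATG5* had 636 to 1319 counts in *lon1-2atg5-1* and 436 to 520 in *atg5-1*, although its insertion is in both. The *lon1-2atg5-1* libraries were the more variable, with a biological coefficient of variation of 0.135, against 0.0631 in *atg5-1*. Of the 5588 genes differentially expressed between the genotypes, 59.3% had *lon1-2atg5-1* replicate 3 as the double-mutant library nearest the *atg5-1* mean. Without that library, 3 of the 10 alpha-expansins passed, all higher, against 31.0% of all genes.

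*EXPA6*, *EXPA10* and *EXPA5* rose in *lon1-2atg5-1* and *EXPA15* fell, while *EXPA3*, *EXPA4*, *EXPA9* and *EXPA11* did not pass the test. Log2 fold changes of *lon1-2atg5-1* over *atg5-1* were 0.90 for *EXPA6*, 0.76 for *EXPA10*, 0.72 for *EXPA5* and -0.61 for *EXPA15*. *EXPA8* and *EXPA1* were higher by less than 1.5-fold. Genes were called differentially expressed where the fold change exceeded 1.5 and the p-value of edgeR's quasi-likelihood test, adjusted over all 20157 genes tested by the Benjamini-Hochberg procedure, was below 0.05. By this rule 3 of the 10 genes were higher in *lon1-2atg5-1* and 1 was lower, against 14.0% and 13.7% of all genes tested. In either direction it was 4 of 10, against 27.7% of all genes. At the adjusted p alone, 5 were higher and 1 lower, 6 of 10, against 53.5% of all genes. The 2 genotypes did not overlap in normalized counts for 4 of the 10 genes, against 63.2% of all genes tested. The median log2 fold change was 0.28, beside -0.0003 over all genes tested. Of the 10 values, 9 were above 0, against 10071 of the 20157 genes tested. In *lon1-2atg5-1* replicate 3 alone, *EXPA3*, *EXPA4*, *EXPA5* and *EXPA15* were below the *atg5-1* mean and the other genes above it. In whole seedlings a fall in the number of cells that express a gene and a fall in transcript per cell cannot be told apart, nor can the corresponding rises.

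**Figure D1:**
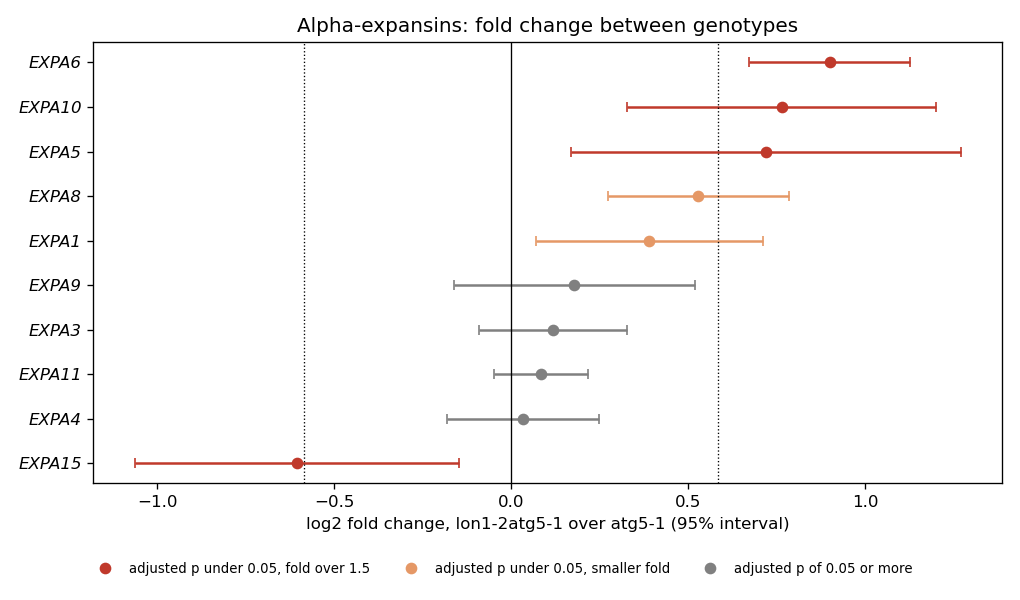
Log2 fold change of *lon1-2atg5-1* over *atg5-1* for each alpha-expansin (x axis), as points with 95% intervals from edgeR's quasi-likelihood fit. Dotted lines mark a 1.5-fold change in either direction. *EXPA6*, *EXPA10* and *EXPA5* lie beyond the line on the right and *EXPA15* on the left, and the intervals of *EXPA3*, *EXPA4*, *EXPA9* and *EXPA11* span 0.

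The 250 bases upstream of the annotated start are shown for the genes that rose or fell, because members that moved in opposite directions can be set side by side there. Sequences are from the TAIR10.1 assembly of RefSeq, written 5′ to 3′ on the strand of the gene. They lie at chr2:12433797-12434046 (minus strand), chr1:9259182-9259431 (plus strand), chr3:11013452-11013701 (minus strand) and chr2:918672-918921 (minus strand). Capitals mark matches on either strand to 5 motifs that were searched, namely the G-box CACGTG, the brassinosteroid-response forms CGTGTG and CGTGCG, and the auxin-response forms TGTCTC and TGTCGG. Matches to CACGTG and to CGTGTG can share bases.
EXPA6: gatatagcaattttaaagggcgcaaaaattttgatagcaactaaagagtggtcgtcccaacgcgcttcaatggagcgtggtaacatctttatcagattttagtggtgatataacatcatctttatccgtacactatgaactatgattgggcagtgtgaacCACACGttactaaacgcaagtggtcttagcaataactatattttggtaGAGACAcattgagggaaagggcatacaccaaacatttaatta
EXPA10: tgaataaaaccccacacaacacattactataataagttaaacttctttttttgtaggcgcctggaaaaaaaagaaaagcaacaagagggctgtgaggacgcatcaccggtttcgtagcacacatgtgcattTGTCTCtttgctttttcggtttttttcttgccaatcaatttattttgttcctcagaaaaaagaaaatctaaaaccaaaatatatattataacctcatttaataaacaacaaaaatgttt
EXPA5: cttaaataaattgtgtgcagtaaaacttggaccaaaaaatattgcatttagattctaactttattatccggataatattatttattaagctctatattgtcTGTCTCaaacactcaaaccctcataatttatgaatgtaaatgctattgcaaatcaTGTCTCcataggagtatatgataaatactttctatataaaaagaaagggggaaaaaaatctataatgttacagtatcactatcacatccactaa
EXPA15: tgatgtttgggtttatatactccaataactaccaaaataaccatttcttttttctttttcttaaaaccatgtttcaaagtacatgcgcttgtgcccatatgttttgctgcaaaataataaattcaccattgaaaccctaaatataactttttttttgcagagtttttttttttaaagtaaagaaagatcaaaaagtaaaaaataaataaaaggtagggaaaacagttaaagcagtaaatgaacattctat

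Within these windows *EXPA6* held CGTGTG on its reverse strand at position -90 from the start and TGTCTC on its reverse strand at -42. *EXPA10* held TGTCTC at -119, and *EXPA5* held it at -149 and -94. *EXPA15* held no match to any of the 5 motifs. Among all 10 genes, TGTCTC occurred in 3, *EXPA5*, *EXPA6* and *EXPA10*, against 10.95% of 27443 upstream windows of the same length. *EXPA8* and *EXPA1*, which were higher by less than 1.5-fold, held no TGTCTC. A link between this motif and the fold changes was not tested. CGTGTG occurred in 2, *EXPA1* and *EXPA6*, against 5.37% of windows. CACGTG was in 0 of the 10, against 6.49% of windows. CGTGCG was also in 0, against 1.57%, and TGTCGG likewise, against 4.16%. No 2 matches within the 10 windows overlapped. A match describes the letters only, and binding was not measured.

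*EXPA6* (AT2G28950) had the highest fold change of the 10 genes. It lies on chromosome 2 from 12431338 to 12433796, and its exons are most similar to those of *EXPA4*. *EXPA6* had 1436, 1264 and 1103 raw counts in *lon1-2atg5-1*, against 716, 648 and 686 in *atg5-1*. All 3 double-mutant libraries were above every *atg5-1* library. Normalized counts averaged 1272 ± 172 in *lon1-2atg5-1* and 682 ± 18.0 in *atg5-1* (SD, n = 3 each). The fold change was 1.87, a log2 value of 0.90 (standard error 0.099, 95% interval 0.67 to 1.13, adjusted p = 0.000186 from edgeR). *EXPA6* passed in each of the 15 alternative fits, and without *lon1-2atg5-1* replicate 3 its log2 fold change was 1.01.

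*EXPA10* (AT1G26770), on chromosome 1 from 9259432 to 9261313, is known for promoting the growth of leaves and petioles. It had 1373, 1135 and 762 counts in *lon1-2atg5-1*, against 704, 639 and 597 in *atg5-1*. Double-mutant replicate 3 was only a little above the highest *atg5-1* library, at 748 normalized counts against 676, and the genotypes did not overlap. Normalized counts averaged 1095 ± 313 in *lon1-2atg5-1* and 645 ± 35.7 in *atg5-1* (SD, n = 3 each). This was a log2 difference of 0.76 (standard error 0.19, 95% interval 0.33 to 1.20, adjusted p = 0.00996 from edgeR). It was 0.98 without *lon1-2atg5-1* replicate 3. Without *lon1-2atg5-1* replicate 1 it was 0.58, just under a 1.5-fold change, with an adjusted p of 0.0165 from edgeR.

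*EXPA5* (AT3G29030), on chromosome 3 from 11011262 to 11013451, has been tied to brassinosteroid-dependent growth of the hypocotyl. It had 355, 327 and 178 counts in *lon1-2atg5-1*, against 180, 177 and 169 in *atg5-1*. Replicates 1 and 2 of the double mutant were far above *atg5-1*, and replicate 3 lay inside the range of the *atg5-1* libraries. Normalized counts averaged 288 ± 98.6 in *lon1-2atg5-1* and 175 ± 4.96 in *atg5-1* (SD, n = 3 each). *EXPA5* thus had a log2 fold change of 0.72 (standard error 0.24, 95% interval 0.17 to 1.27, adjusted p = 0.0335 from edgeR). Without *lon1-2atg5-1* replicate 3 it was 0.98, with an adjusted p of 6.05e-05 from edgeR. The test was not passed without *lon1-2atg5-1* replicate 1 (0.55) or 2 (0.59), or without *atg5-1* replicate 1 (0.71), 2 (0.74) or 3 (0.70), with adjusted p from 0.0816 to 0.111 in edgeR. It was also not passed by limma on log2(FPKM + 1), at 0.55, or on log2(FPKM + 0.1), at 0.62. The high values of *EXPA5* are thus those of 2 of the 3 double-mutant libraries.

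*EXPA8* (AT2G40610), on chromosome 2 from 16948791 to 16950705, had 468, 592 and 510 counts in *lon1-2atg5-1* and 361, 365 and 369 in *atg5-1*. Every double-mutant library was above every *atg5-1* library, and the 3 *atg5-1* values were close together. Normalized counts averaged 526 ± 78.9 in *lon1-2atg5-1* and 364 ± 15.5 in *atg5-1* (SD, n = 3 each), or a log2 fold change of 0.53 (standard error 0.11, 95% interval 0.27 to 0.78, adjusted p = 0.00455 from edgeR), a 1.44-fold difference. The adjusted p stayed under 0.05 in all 15 alternative fits. Without *lon1-2atg5-1* replicate 3 the log2 value was 0.57. The fold change passed 1.5 in 1 of the 15, without *lon1-2atg5-1* replicate 1, at a log2 value of 0.62.

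*EXPA1* (AT1G69530), on chromosome 1 from 26141726 to 26143538, acts in leaves and in the walls of guard cells, where it affects the opening of stomata. It had 4566, 4406 and 3176 counts in *lon1-2atg5-1* and 3369, 2850 and 3125 in *atg5-1*. As with *EXPA5*, replicates 1 and 2 of the double mutant were above *atg5-1* and replicate 3 was within its range. Normalized counts averaged 4070 ± 824 in *lon1-2atg5-1* and 3104 ± 173 in *atg5-1* (SD, n = 3 each). For *EXPA1* the log2 fold change was 0.39 (standard error 0.14, 95% interval 0.069 to 0.71, adjusted p = 0.0442 from edgeR), a 1.31-fold difference. It was 0.55 without *lon1-2atg5-1* replicate 3, with an adjusted p of 0.000188 from edgeR. In edgeR the adjusted p was 0.0570 with the replicate number as a block and 0.0708 with library size scaling, and in limma on FPKM it was 0.106 to 0.133. Leaving out *lon1-2atg5-1* replicate 1 (0.31) or 2 (0.30) or *atg5-1* replicate 1 (0.42), 2 (0.35) or 3 (0.40) gave adjusted p from 0.0855 to 0.149 in edgeR. Beside *EXPA1*, 8 stomatal markers were read. Of these, 4 were lower in *lon1-2atg5-1* by the 1.5-fold rule and 7 at the adjusted p alone, against 13.7% and 25.8% of all genes tested, and none was at 0 counts. Their summed normalized counts were 1359 to 1613 in *lon1-2atg5-1* and 2185 to 2433 in *atg5-1*, and the part of this difference in the *EXPA1* value was not tested.

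*EXPA3*, *EXPA4*, *EXPA9* and *EXPA11* did not pass the test. *EXPA11* (AT1G20190), on chromosome 1 from 6998335 to 6999839, had 1280, 1176 and 1219 counts in *lon1-2atg5-1* and 1249, 1091 and 1146 in *atg5-1*. Double-mutant replicate 3 lay within the *atg5-1* range after normalization and the others above it, and the log2 fold change was 0.084 for *EXPA11* (95% interval -0.049 to 0.22, adjusted p = 0.251 from edgeR), the narrowest interval of the 10. Without *lon1-2atg5-1* replicate 3 the values were 0.11 for *EXPA11*, 0.11 for *EXPA4* and 0.21 for *EXPA9*. *EXPA4* (AT2G39700), on chromosome 2 from 16543832 to 16545746, had 537, 544 and 482 counts in *lon1-2atg5-1* and 539, 456 and 541 in *atg5-1*. Its log2 fold change was 0.035 (95% interval -0.18 to 0.25, adjusted p = 0.773 from edgeR), and it turned to -0.020 without *lon1-2atg5-1* replicate 2 and to -0.028 without *atg5-1* replicate 2. Exons of *EXPA4* and *EXPA6* are 78.6% identical over 739 aligned bases, and the difference between their fold changes was not tested.

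*EXPA3* (AT2G37640), on chromosome 2 from 15787523 to 15790139, is known with *EXPA1*, *EXPA5* and *EXPA10* for a part in leaf growth. It had 1289, 1210 and 1033 counts in *lon1-2atg5-1* and 1127, 1046 and 1100 in *atg5-1*. After normalization, *EXPA3* was above every *atg5-1* library in double-mutant replicates 1 and 2 and below every one in replicate 3. Its log2 fold change was 0.12 (95% interval -0.090 to 0.33, adjusted p = 0.298 from edgeR). Without *lon1-2atg5-1* replicate 3 it was 0.22, with an adjusted p of 0.0130 from edgeR. *EXPA9* (AT5G02260), on chromosome 5 from 463073 to 465273, had 390, 375 and 371 counts in *lon1-2atg5-1* and 434, 262 and 317 in *atg5-1*. It was the only one of the 10 genes for which all 3 double-mutant libraries lay inside the *atg5-1* range. The log2 fold change of *EXPA9* was 0.18 (95% interval -0.16 to 0.52, adjusted p = 0.335 from edgeR). Without *atg5-1* replicate 1, the highest of its *atg5-1* libraries, it was 0.37, with an adjusted p of 0.0324 from edgeR.

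*EXPA15* (AT2G03090), on chromosome 2 from 916806 to 918671, is expressed in the growing parts of the root, among other tissues, and was the gene that fell. It had 143, 242 and 176 counts in *lon1-2atg5-1*, against 340, 255 and 268 in *atg5-1*. Every double-mutant library was below every *atg5-1* library, but replicate 2 only by a small margin, at 251 normalized counts against 260 in the lowest *atg5-1* library. Normalized counts averaged 189 ± 56.5 in *lon1-2atg5-1* and 286 ± 35.3 in *atg5-1* (SD, n = 3 each). On the log2 scale the change was -0.61 (standard error 0.20, 95% interval -1.06 to -0.15, adjusted p = 0.0324 from edgeR), close to the threshold of 1.5-fold. It was -0.86 without *lon1-2atg5-1* replicate 2, with an adjusted p of 0.00405 from edgeR. The test was not passed without *lon1-2atg5-1* replicate 1 (-0.43) or 3 (-0.54), or without *atg5-1* replicate 1 (-0.50), 2 (-0.67) or 3 (-0.64), with adjusted p from 0.0539 to 0.114 in edgeR. With limma on log2(FPKM + 1) the value was -0.58, under 1.5-fold. Root markers were read beside it. Of 13 tested, 6 of the 7 endodermis markers were lower by the rule above, *CASP1* to *CASP5* and *ESB1*, against 13.7% of all genes tested. None of the 13 was at 0 counts. The summed normalized counts of the 7 were 642 to 690 in *lon1-2atg5-1* and 1340 to 1698 in *atg5-1*. The 3 root cap markers did not pass, at log2 fold changes of -0.84 to -0.66 and adjusted p of 0.0625 to 0.110 in edgeR. Of the 3 meristem markers, *PLT1* (-0.38) and *PLT2* (-0.023) did not pass. *WOX5* was higher (1.42), at only 14 to 23 counts in *lon1-2atg5-1* and 4 to 9 in *atg5-1*. Summed normalized counts of the 3 meristem markers overlapped, at 44.6 to 63.8 in *lon1-2atg5-1* and 41.8 to 59.5 in *atg5-1*. The part of any of these in the *EXPA15* value was not tested.

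Levels were compared between genes in FPKM, which is scaled by gene length. *EXPA1* was the most abundant, at 116 ± 25.8 FPKM in *lon1-2atg5-1* and 89.6 ± 6.05 FPKM in *atg5-1* (SD, n = 3 each), and supplied 34.5% to 38.5% and 35.9% to 36.9% of the summed FPKM of the 10 genes. *EXPA11* came second in both genotypes, at 40.1 ± 2.25 FPKM in *lon1-2atg5-1* and 38.6 ± 1.95 FPKM in *atg5-1*. In *lon1-2atg5-1* it was followed by *EXPA6* (35.1 ± 5.68), *EXPA10* (30.7 ± 9.50) and *EXPA3* (29.1 ± 4.28 FPKM), and the ranges of these 4 neighbours overlapped one after another. *EXPA8* (17.4 ± 2.57) and *EXPA4* (15.3 ± 1.64 FPKM) also overlapped, as did *EXPA5* (8.91 ± 3.21) and *EXPA15* (5.75 ± 1.71 FPKM) at the low end, below *EXPA9* (12.2 ± 0.734 FPKM). In *atg5-1* the third place was held by *EXPA3* (27.3 ± 0.745 FPKM), clear of *EXPA6* (19.1 ± 0.685) and *EXPA10* (18.3 ± 1.18 FPKM), which overlapped. *EXPA4* (15.2 ± 1.35 FPKM) was next, then *EXPA8* (12.3 ± 0.372), *EXPA9* (11.0 ± 2.64) and *EXPA15* (8.92 ± 1.23 FPKM), each of these overlapping the next, and *EXPA5* (5.47 ± 0.121 FPKM) was lowest. The 2 least abundant genes thus held opposite places in the 2 genotypes.

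**Figure D2:**
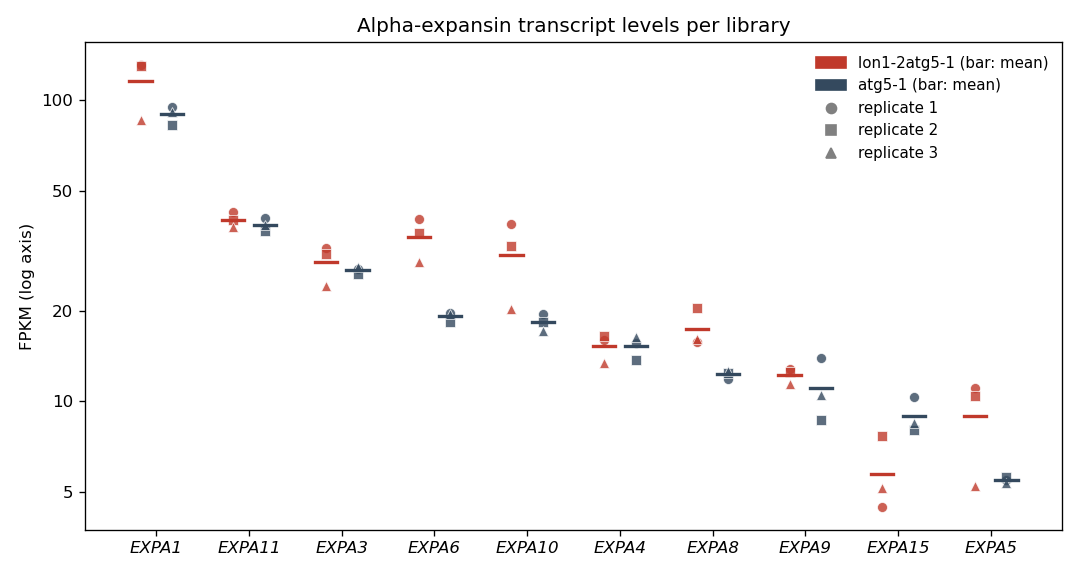
FPKM of each alpha-expansin (y axis, log scale) in the 3 libraries of *lon1-2atg5-1* (red, left of each pair) and the 3 of *atg5-1* (blue, right), with bars at the mean and marker shape giving the replicate. *EXPA1* is highest throughout, the 3 *EXPA6* points of *lon1-2atg5-1* (29.0 to 40.2 FPKM) lie above those of *atg5-1* (18.4 to 19.6 FPKM), and replicate 3 of *lon1-2atg5-1* lies at the *atg5-1* level for *EXPA1* and *EXPA5*.

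Summed over the 10 genes, FPKM was 345, 337 and 248 in *lon1-2atg5-1* and 259, 231 and 247 in *atg5-1*. Double-mutant replicates 1 and 2 were above all *atg5-1* libraries and replicate 3 was within their range. The 10 genes made up 91.8%, 91.0% and 88.8% of the FPKM of all alpha-expansins in *lon1-2atg5-1*, against 77.9%, 79.6% and 80.3% in *atg5-1*, with no overlap. This share depends on the other alpha-expansins too, of which 4 were lower and 1 higher among 8 tested. Mean FPKM was 6.10 in *lon1-2atg5-1* and 21.5 in *atg5-1* for *EXPA7*, and 5.02 and 17.9 for *EXPA18*. In replicate 3 the share was 88.8% although the summed FPKM of the 10 genes was within the *atg5-1* range. Replicate 3 was the double-mutant library nearest the *atg5-1* mean for 7 of the 10 genes, and for all 3 genes that rose. The spread of *lon1-2atg5-1* libraries was widest for *EXPA5*, with a coefficient of variation of 34.2%, followed by *EXPA15* at 30.0%, *EXPA10* at 28.6% and *EXPA1* at 20.2%. The same genes had coefficients of 2.84%, 12.3%, 5.54% and 5.56% in *atg5-1*. *EXPA9* went the other way, with 3.55% in *lon1-2atg5-1* and 22.5% in *atg5-1*.

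**Figure D3:**
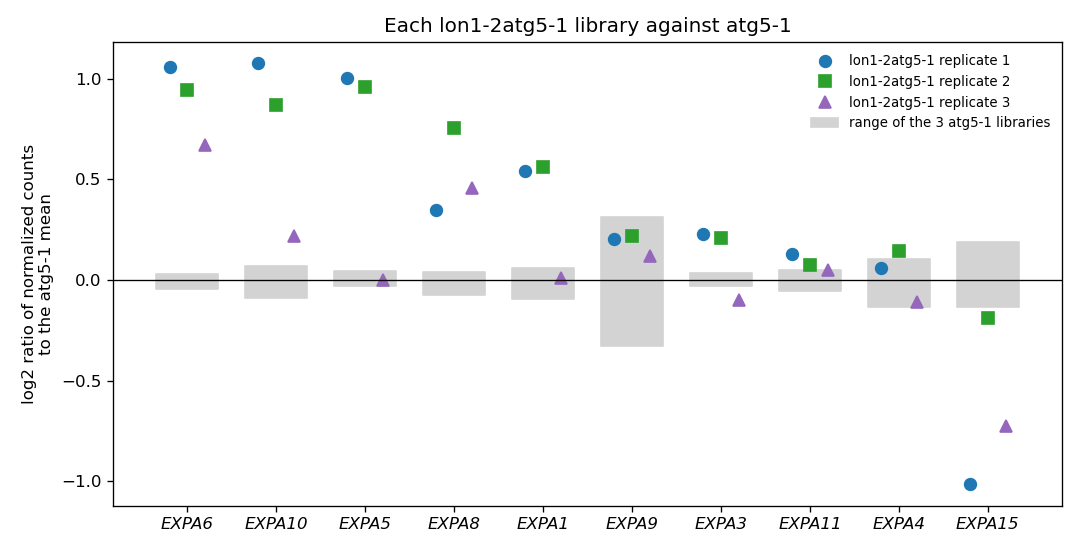
Log2 ratio of normalized counts in each *lon1-2atg5-1* library to the *atg5-1* mean (y axis), one marker per replicate, for the 10 alpha-expansins in order of fold change. Grey bars span the 3 *atg5-1* libraries. Replicate 3 lies at 0.67 for *EXPA6* and 0.22 for *EXPA10*, and inside the grey bar for *EXPA1* and *EXPA5*.

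None of the 10 genes overlaps another annotated gene in TAIR10.1, and none has a copy elsewhere with 90% identity over 100 bases. The closest pairs over at least 300 aligned bases were *EXPA4* with *EXPA16*, at 81.6% over 745 bases, and *EXPA1* with *EXPA10*, at 81.0% over 684 bases. *EXPA10* and *EXPA15* were 77.4% identical over 680 bases and changed in opposite directions.

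Of 16 other alpha-expansins, 15 were in the tables and 8 were tested, with a median log2 fold change of -0.60. By the same rule 4 were lower and 1 higher in *lon1-2atg5-1*, against 13.7% and 14.0% of all genes tested. *EXPA18* and *EXPA7*, which are specific to root hairs, had the largest falls, at -1.80 and -1.79 (standard errors 0.14 and 0.20), and each overlaps a gene on the opposite strand. All 5 root hair markers, these 2 among them, were lower, against 13.7% of all genes tested. Apart from these 2, *COW1* was at -1.23, *RHD2* at -0.94 and *PRP3* at -2.21. Summed normalized counts of the 5, which include *EXPA7* and *EXPA18*, were 1156 to 1688 in *lon1-2atg5-1* and 4864 to 6320 in *atg5-1*. There were 0 markers at 0 counts. The part of root hairs in the fall of the other alpha-expansins was not tested. *EXPA16*, whose exons are closest to those of *EXPA4*, was at -1.36 (standard error 0.14, adjusted p = 0.000139 from edgeR), beside 0.035 for *EXPA4*. *EXPA14*, which is expressed in roots, was at -0.62, and was chosen for mention after its value was seen, and *EXPA20* was the one that rose, at 0.63, with an antisense gene over part of it. With limma on log2(FPKM + 1) the calls among these genes were 3 lower and none higher. On log2(FPKM + 0.1) they were 5 lower and 1 higher, with 7 tested in each of these fits. Of 6 beta-expansins and expansin-like genes tested, 2 passed, both lower, against 13.7% of all genes tested. They were *EXPB3* and *EXPB1*, both at -0.68, and all 6 values were below 0, with a median of -0.58. Of this list 1 passed with limma on log2(FPKM + 1) and 2 on log2(FPKM + 0.1).

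The proton pumps that acidify the wall gave 1 call among 9 tested, with a median of -0.080. At the adjusted p alone 4 pumps were lower and 1 higher, against 25.8% and 27.7% of all genes tested. Beside the count of this list and of each list below stands the share of all genes tested that were called. That share was 27.7% in either direction, 14.0% higher and 13.7% lower. *AHA1* and *AHA2*, the principal pumps of seedlings, were at -0.080 and 0.13 (adjusted p = 0.349 and 0.296 from edgeR), and *AHA7* was the one that fell, at -1.41, although it overlaps a gene on each strand. Of the 6 auxin-induced genes of the SAUR19 subfamily, which keep the pumps active, 2 passed, both lower, *SAUR22* at -1.41 and *SAUR20* at -0.65. *SAUR22* had only 10 to 12 counts in *lon1-2atg5-1* and 24 to 32 in *atg5-1*. All 6 values were below 0, with a median of -0.68. Reads of these closely similar genes could be split between copies. Primary-wall cellulose synthesis gave 1 call among 9 tested, *CESA9* at 0.86, with 31 to 47 counts in *lon1-2atg5-1* and 18 to 27 in *atg5-1*. The median of the list was -0.13, and 6 of its 9 values were below 0. At the adjusted p alone 2 were higher and 2 lower, against 27.7% and 25.8% of all genes tested. *CESA9* was at 0.21 to 0.54 FPKM, so the 2 limma fits with a filter on low values did not test it. The unfiltered limma fit on log2(FPKM + 1) could not reach a 1.5-fold change at such levels, so it decides nothing about *CESA9*. Of 3 secondary-wall cellulose synthases, 2 were lower, *CESA4* at -0.92 and *CESA7* at -0.61. Of this list 1 passed with limma on log2(FPKM + 1) and 2 on log2(FPKM + 0.1). *CESA4* overlaps a gene on each strand and *CESA7* one on the opposite strand.

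Of 20 growth transcription factors tested, 5 passed, all lower, against 13.7% of all genes tested. At the adjusted p alone 8 were lower and 1 higher, against 25.8% and 27.7% of all genes tested. The median of all 20 was -0.097, and 15 values were below 0. The 5 that passed were *PRE6* (-0.97), *BEE3* (-0.87), *IBH1* (-0.83), *BEE1* (-0.71) and, chosen for mention after its value was seen, *ARF19* (-0.59). *BEE1* and *BEE3* encode basic helix-loop-helix proteins induced early by brassinosteroids, *IBH1* encodes a repressor of cell elongation, and *ARF19*, which overlaps a gene on its own strand, an auxin response factor. Green leaf markers gave 1 call among 10, *RBCS1B*, which was higher, and their summed normalized counts overlapped, at 1288022 to 1548731 in *lon1-2atg5-1* and 1297577 to 1385219 in *atg5-1*.

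**Figure D4:**
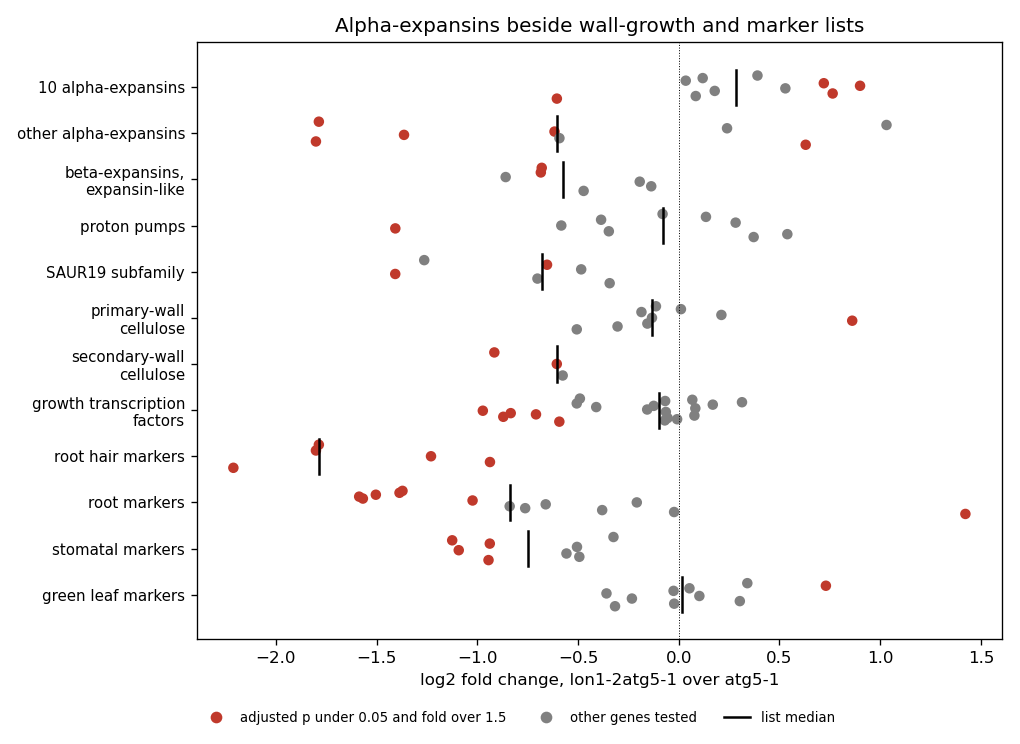
Log2 fold change of *lon1-2atg5-1* over *atg5-1* (x axis) for each tested gene of the 10 alpha-expansins, of the related wall-growth lists and of the marker lists (rows), with a bar at each list's median. The 10 alpha-expansins have a median of 0.28, the other alpha-expansins one of -0.60 and the root hair markers one of -1.79.

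The genes whose profile was most like that of *EXPA6* over the 6 libraries were *GR-RBP6* (AT1G18630), which encodes a glycine-rich RNA-binding protein, and *SAHH2* (AT3G23810), which encodes an S-adenosyl-homocysteine hydrolase. Likeness was the root-mean-square difference of log2 CPM centred on each gene, and it was 0.029 and 0.035. For *EXPA15*, the nearest were AT2G36026 and AT3G42800, at 0.078 and 0.085. All 6 libraries entered the measure, so a difference between the genotypes counts in it as much as the spread within them.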

How the data were processed

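Stranded mRNA libraries of *lon1-2atg5-1* and *atg5-1* seedlings were sequenced as paired reads. The authors used Trimmomatic for trimming and hisat2 for alignment, and deposited raw, unnormalized counts per gene from htseq-count. They also deposited FPKM values, for which cufflinks is named. Recomputing FPKM from count, gene length and library total gave the same values, to a relative error of 6.12e-08 at most. Implied lengths equalled TAIR10.1 exonic lengths for 23819 of 23819 genes with a count, and the labels name TAIR10. Whether counting used strand is not given in the sources used here.

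Libraries were grouped by title. Counts were filtered with filterByExpr (20157 genes), TMM-normalized and compared by quasi-likelihood in edgeR 4.0.16 (R 4.3.3), with Benjamini-Hochberg adjustment over all genes. Standard errors were derived from the log2 fold change and the F statistic, and can be too small at low counts. Normalized counts were scaled by TMM to the mean library. Alternatives used DESeq2 1.42.0, limma 3.58.1 on log2(FPKM + 1) and log2(FPKM + 0.1), the exact test of edgeR, other filters, scalings and thresholds, the replicate number as a block, and each library left out in turn. Exons were compared with BLAST 2.17.0. All 10 alpha-expansins are named. Of each wall-growth list and of the growth transcription factors, up to 4 called genes are named by size of change, with *EXPA14* and *ARF19* beyond these. The abundant pumps *AHA1* and *AHA2* are also named. The genes and lists were chosen with earlier results of these data known. Protein sequences were not used here.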

Additional observations from a re-analysis of the deposited data

How the results depend on the processing

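Of the 10 alpha-expansins, 4 were differentially expressed in the reported fit and also with DESeq2, the exact test of edgeR, library size scaling, an unadjusted p under 0.05, a minimum of 10 counts per library, and no filter. Over all genes the share called under these settings was 24.6% to 28.8%. With limma on log2(FPKM + 1) the number was 2, against 21.6% of all genes with a filter on low values and 17.6% without, and *EXPA5* (0.55) and *EXPA15* (-0.58) were lost. With limma on log2(FPKM + 0.1) it was 3, against 26.1% of all genes, and *EXPA5* (0.62) was lost. At a fold change over 2 it was 0 of the 10 in edgeR, with p adjusted or not. With p adjusted, 2840 of all genes tested (14.1%) passed at that fold change. With no fold threshold the number was 6 of the 10 alpha-expansins and 10781 of all genes (53.5%). With one library left out, the number ranged from 2 to 3, against 5149 to 6323 of all genes (25.3% to 31.0%), and log2 fold changes ranged from 0.81 to 1.01 for *EXPA6*, 0.58 to 0.98 for *EXPA10*, 0.55 to 0.98 for *EXPA5*, 0.41 to 0.62 for *EXPA8*, -0.86 to -0.43 for *EXPA15* and -0.028 to 0.11 for *EXPA4*, which reversed at -0.020 and -0.028. The cause was not tested. The median over the 10 genes was 0.23 to 0.39 in the alternatives run.

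Replicate numbers are shared between genotypes, but same-numbered libraries did not deviate together (correlations -0.037, -0.12 and -0.0099 across genes). With 3 libraries of each genotype a weak shared effect could go unseen, and the titles give the number only. With a replicate block the number was 4 of the 10 and 5472 of all genes tested (27.1%), against 5588 (27.7%) without it. With the block, *EXPA6* was at 0.89, *EXPA10* at 0.73, *EXPA5* at 0.67 and *EXPA15* at -0.63. Among the proton pumps 2 rather than 1 passed with the block, and likewise with DESeq2, library size scaling, the minimum of 10 counts and limma on log2(FPKM + 0.1). There are 3 libraries of each genotype, and this limits how small a difference can be separated from the spread, above all for *EXPA5*, *EXPA10* and *EXPA15*.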
